A study of Mus musculus with 7 samples.

Results

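The genes described here encode nuclear subunits of respiratory complexes III, IV and V and the electron carrier cytochrome c. They were taken from the array's annotation by symbol: every row with a single gene symbol starting with Uqcr, Cox4i, Cox5, Cox6, Cox7, Cox8 or Atp5, or named Cyc1 or Cycs, with the row of highest mean log2 intensity standing for a gene that had several. This gave 44 genes of the 19938 named on the array, of which 9 belong to complex III, 17 to complex IV and 17 to complex V, beside Cycs. A gene was kept for the comparisons when 1 or more of its 7 intensities was no lower than that array's median over all rows, and 41 of the 44 passed, as did 12102 of the 19938 genes in all. Cox6b2, Cox7b2 and Cox8c, isoforms best known from the testis, did not pass, at 83.0 to 110.8, 24.5 to 28.6 and 91.7 to 122.6.

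Male C57BL/6J mice, 5 months old, gave the left plantaris, a muscle of the calf in which fast fibres prevail. The animals of all 7 groups had spent 2 weeks under hindlimb suspension, which takes the weight off the hind limbs, and the groups differ in the days of reloading that followed: 0 (d0, the control), 1, 3, 5, 7, 10 and 14. RNA of 6 animals was pooled for each day and read on 1 Affymetrix Mouse Gene 1.0 ST array. No day has a replicate, and muscle from before suspension was not analysed here, so a difference between 2 days has neither an error nor a p-value. Where 7 intensities of a gene are given, they run in the order d0, d1, d3, d5, d7, d10, d14.

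In the inner mitochondrial membrane, complex III passes electrons from ubiquinol to cytochrome c, complex IV passes them from cytochrome c to oxygen, and complex V (ATP synthase) uses the proton gradient that the chain builds to make ATP. The catalytic core of complexes III and IV is partly encoded by mitochondrial DNA, while the subunits followed here are encoded in the nucleus. Several subunits of complex IV come in pairs of isoforms, with Cox6a2, Cox7a1 and Cox8b found in heart and skeletal muscle and Cox6a1, Cox7a2 and Cox8a in most tissues.

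The median intensity of an array lay between 128.1 and 131.8. Markers of skeletal muscle fibres were high on each array, with all 9 of 9 past the filter and their summed intensity between 125056.7 (d1) and 133021.7 (d0). The 4 heart markers were low, with a summed intensity of all 4 between 416.4 (d0) and 481.8 (d7). Of these, Tnni3 and Ryr2 were below the filter and Myh6 and Nppa past it. The slow fibre markers summed to 1961.4 at d0, 4489.6 at d3, 3947.0 at d10 and 2577.1 at d14. The array of d10 stood apart in neutrophil markers, 8 of 8 of which were higher than at d0 by 0.32 or more on the log2 scale (13.3% of all genes). Their summed intensity was 8309.5 against 1240.8 at d0 and 1543.3 at d14. The 3 bone markers with a row were also highest at d10, with a sum of 982.9 against 384.8 at d0 and 481.4 at d14. Over all 12102 genes the median log2 ratio to d0 was 0.10 at d1 and between 0.048 (d5) and 0.096 (d10) on the other days, so ratios to d0 leaned upward for genes in general. In whole muscle, fewer cells of a type and less RNA per cell cannot be told apart.

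The subunit genes were lower 1 day after reloading and then higher than at the end of suspension. Their median log2 ratio to d0 was -0.086 at d1 and 0.012 at d3, and then 0.17, 0.16, 0.19 and 0.15 on the arrays from d5 to d14. At d1, 32 of the 41 genes lay below d0, whereas 25.0% of all genes did. At d14, 39 of 41 lay above d0, against 71.3% of all genes, and the 2 that did not were Uqcrb and Uqcr11. The sizes were small. Differences were counted from 0.32 on the log2 scale upward, a ratio of 5 to 4. Higher than d0 by this size were 1 gene at d1 (15.8% of all genes) and 1 at d3 (9.96%). The later arrays had 5 at d5 (8.59%), 7 at d7 (12.4%), another 7 at d10 (13.3%) and 8 at d14 (7.25%). As shares of 41, those of d5, d7 and d10 were near that of all genes, and that of d14 was the farthest above it. Lower by this size were 1 gene at d1 (3.07% of all genes), 2 at d3 (2.8%), 1 at d5 (3.35%) and 0 at d7 (2.86%), d10 (2.39%) and d14 (1.8%).

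The low point was d1 rather than d0 for most subunits. In 30 of the 41 genes the lowest of the 7 arrays was d1, as in 10.6% of all genes, and in 8 it was d0, as in 39.4% of all genes. The share with the low point at d1 was 14 of 17 in complex V, 9 of 14 in complex IV and 6 of 9 in complex III. Markers of skeletal muscle fibres moved with this: all 9 were below d0 at d1 (25.0% of all genes), with a median log2 ratio of -0.091. Macrophage markers were above d0 in 7 of 7 (70.9% of all genes), with a summed intensity of 3454.7 against 1828.5. They were not alone in this, since neutrophil markers were above d0 in 8 of 8 and slow fibre markers in 6 of 6, and fibroblast markers in 2 of 4. The part of any of these in the low values of d1 was not tested.

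Set against d1 instead of d0, the later days differed more from it than all genes did. The median log2 ratio of the 41 genes to d1 was 0.12 at d3 and then 0.27, 0.21, 0.28 and 0.29 from d5 to d14, while the median of all genes lay between -0.033 and 0.000. At d14, 40 of 41 were above d1, the exception being Cox6a1, against 40.9% of all genes. Higher than d1 by 0.32 or more were 0 genes at d3 (1.86% of all genes) and 11 at d5 (2.88%). There were 10 on the array of d7 (5.36%), 18 on that of d10 (5.29%) and 14 on that of d14 (3.43%). All of these comparisons share the d1 array, as those above share d0. In the 30 of 41 genes with their lowest array at d1, every later day lies above d1 by definition. The ratios to d1 therefore largely restate that low point and are not a separate result.

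Most subunits stayed above their early values from d5 on. In 24 of the 41 genes each of the arrays of d5, d7, d10 and d14 was above each of d0, d1 and d3, a pattern held by 4.06% of all genes, and the reverse pattern was held by 0 of 41 and 0.81% of all genes. It was found in 7 of 9 genes of complex III, 12 of 17 of complex V and 5 of 14 of complex IV. Between d7 and d14, the median difference was 0.040 and 0 of 41 genes differed by 0.32 or more in either direction, as 3.24% of all genes did. Between neighbouring arrays from d5 on, a single gene differed by 0.32 or more: Cox6a1 was lower at d7 than at d5 (-0.52, a size reached downward by 1.95% of all genes) and higher at d10 than at d7 (0.36, reached upward by 4.96%). The highest array was d10 in 12 genes, d14 in 10, d5 in 9, d7 in 9 and d0 in 1, Uqcr11.

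**Figure D1:**
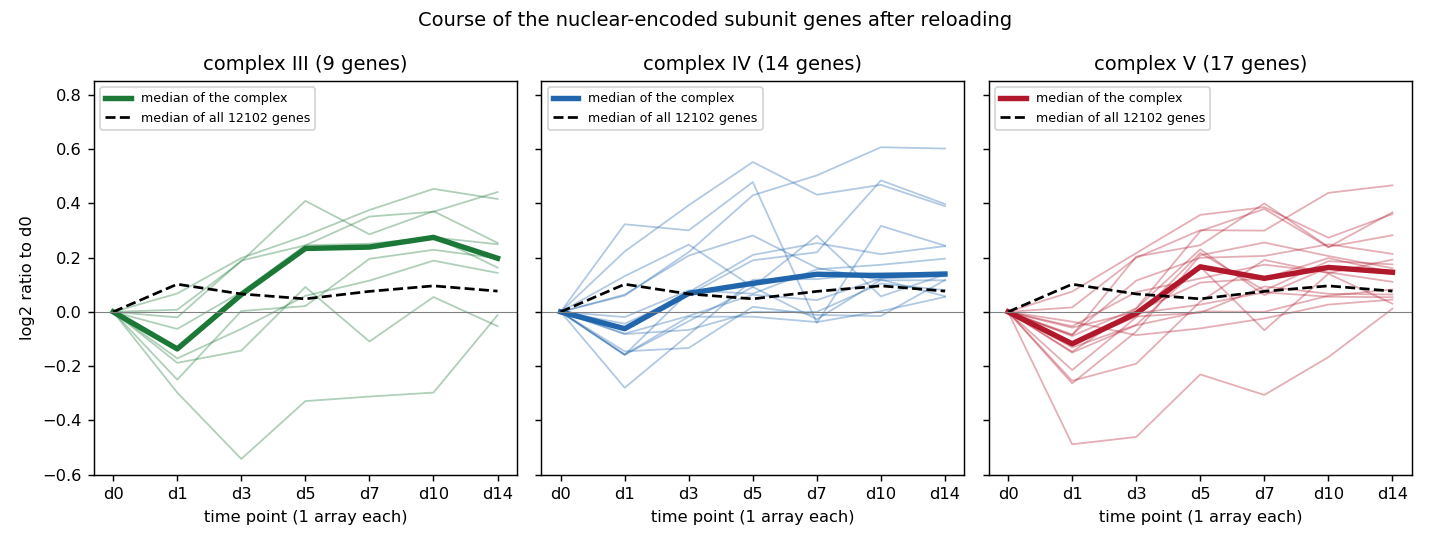
Log2 ratio to d0 (y axis) over the 7 time points (x axis, 1 array each) for the genes of complex III (9 genes), complex IV (14) and complex V (17). Thin lines are single genes, the thick line is the median of the complex and the dashed line the median of all 12102 genes; the complex medians lie below the dashed line at d1 and above it from d5 on.

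Over all 7 arrays, a limma fit of log2 intensity on log2(day + 1) gave a positive slope for 40 of the 41 genes, with a median of 0.0623 per doubling of (day + 1) against 0.0139 for all genes. After Benjamini-Hochberg adjustment over the 12102 genes, 0 of 41 rose and 0 fell, as did 0 of all genes (0.0%). At an unadjusted p under 0.05 in this limma fit, 23 of 41 had a positive slope and 0 a negative one, against 9.19% and 1.45% of all genes. The smallest adjusted p was 0.147, for Cox4i1. Without the d0 array, Cox4i1 and Uqcrq rose (limma adjusted p = 0.0469 for both), as did 0.157% of all genes, and 31 of 41 had a positive slope at an unadjusted p under 0.05 against 6.88%. That fit starts at d1, the lowest array in 30 of the 41 genes, so its slopes are not separate from that low point. With any other array left out instead, 0 of 41 passed adjustment. The complexes had median slopes of 0.0904 (III), 0.0623 (V) and 0.0419 (IV), and whether they differ was not tested, since the genes of 1 complex share their arrays.

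**Figure D2:**
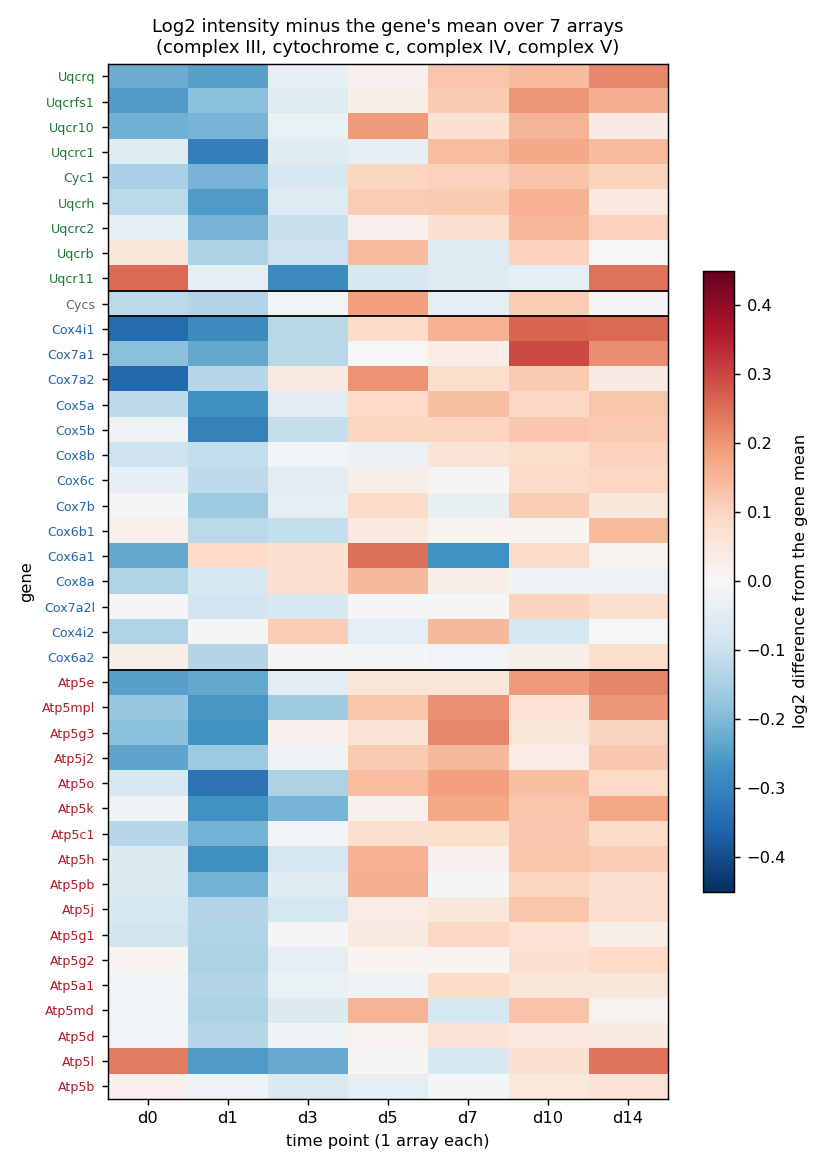
Log2 intensity of the 41 genes (rows, grouped by complex) on each array (columns), as the difference from the gene's own mean over the 7 arrays. Blue marks values below and red above that mean; blue cells lie mostly at d0, d1 and d3 and red cells from d5 on, while Uqcr11 and Atp5l are red at d0 and d14.

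To show what lies upstream of these genes, the 250 bases before each annotated start were searched on both strands for 6 short motifs. This was done in the 33 of 44 genes with an entry in RefSeq's GRCm38.p6 table and in the 27025 genes of that table. A gene with more than 1 annotated start, such as Atp5j, was counted when any of its windows matched. The NRF-1 type motif (GCGC and TGCGC with 1 base of any kind between) was present in 5 of 33 genes (15.2%) and in 4.23% of all genes, and the ETS type motif CCGGAAG, that of GABP, in 8 of 33 (24.2%) and in 7.83%. The SP type motif GGGCGG was present in 11 of 33 (33.3%) and in 35.4%. The motifs of YY1 (AAGATGGCG) and of the oestrogen related receptors (TCAAGGTCA) were present in 1 gene each, namely Atp5j and Atp5g3, and in 0.710% and 0.422% of all genes. The pattern searched for MEF2 (CTA and TAG with 4 bases of any kind between) is looser than the MEF2 site. It was present in 1 gene, Cox5b, as CTACTTTTAG with a C in the middle, and in 3.70% of all genes. Matches of different motifs overlapped in 0 of the windows of these genes. A match describes the letters only and is not evidence of binding. Sequences are printed for an isoform pair followed below (Cox7a1 and Cox7a2), for Cox6a1 and Atp5h, which hold both an NRF-1 and an ETS type match, and for Atp5e, which had the largest slope of complex V. They run 5′ to 3′ on the gene's strand and end at the base before the start, with motif matches in capitals. Cox7a1 (chr7:30183921-30184170, plus strand) holds no match, Cox7a2 (chr9:79759854-79760103, minus strand) an SP match, and Cox6a1 (chr5:115348959-115349208, minus strand), Atp5h (chr11:115419920-115420169, minus strand) and Atp5e (chr2:174464102-174464351, minus strand) an ETS match (cttccgg on this strand) among others.
Cox7a1: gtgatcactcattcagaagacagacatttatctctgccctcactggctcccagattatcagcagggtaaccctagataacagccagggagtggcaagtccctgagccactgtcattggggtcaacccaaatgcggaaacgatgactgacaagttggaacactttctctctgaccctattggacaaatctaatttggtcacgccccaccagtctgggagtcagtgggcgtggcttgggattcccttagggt
Cox7a2: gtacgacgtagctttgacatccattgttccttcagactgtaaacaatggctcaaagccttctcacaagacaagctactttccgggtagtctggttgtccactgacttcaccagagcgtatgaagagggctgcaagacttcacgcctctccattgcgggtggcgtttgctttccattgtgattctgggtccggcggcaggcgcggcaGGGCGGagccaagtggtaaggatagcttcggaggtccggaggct
Cox6a1: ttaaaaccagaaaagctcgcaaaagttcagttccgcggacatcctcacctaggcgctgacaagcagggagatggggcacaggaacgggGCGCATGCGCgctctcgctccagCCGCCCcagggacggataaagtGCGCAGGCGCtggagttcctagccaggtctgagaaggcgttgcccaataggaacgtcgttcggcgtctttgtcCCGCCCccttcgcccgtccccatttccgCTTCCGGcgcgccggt
Atp5h: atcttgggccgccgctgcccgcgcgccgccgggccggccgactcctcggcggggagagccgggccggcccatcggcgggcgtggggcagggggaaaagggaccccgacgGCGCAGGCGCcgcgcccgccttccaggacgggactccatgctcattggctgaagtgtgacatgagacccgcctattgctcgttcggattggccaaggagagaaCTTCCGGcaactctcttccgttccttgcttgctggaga
Atp5e: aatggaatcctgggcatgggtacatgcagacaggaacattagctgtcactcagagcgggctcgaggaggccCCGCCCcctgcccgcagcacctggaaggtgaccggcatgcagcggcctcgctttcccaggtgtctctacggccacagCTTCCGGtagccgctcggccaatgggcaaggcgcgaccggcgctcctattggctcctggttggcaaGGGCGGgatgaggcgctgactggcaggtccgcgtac

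In complex III the redox-active subunits had their highest values at d10. Uqcrfs1 encodes the Rieske iron-sulfur protein, which takes electrons from ubiquinol, and its intensities were 758, 795, 870.2, 921, 984, 1038 and 1012. All 4 arrays from d5 on were above the first 3, and d10 was 1.37-fold d0 (log2 0.45). Cyc1 encodes cytochrome c1, the subunit that hands electrons to cytochrome c, with 3339.5, 3197, 3513, 3957, 3974, 4038 and 3968. It was lowest at d1 and lay within 3957 to 4039 from d5 to d14, 1.21-fold d0 at the highest. The limma slope was 0.123 for Uqcrfs1 (SE 0.0187, adjusted p 0.205) and 0.0904 for Cyc1 (SE 0.0218, adjusted p 0.31).

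Uqcrc1 and Uqcrc2 encode the core proteins that face the matrix. The Uqcrc1 intensities were 5196, 4371, 5208, 5273, 5949.7, 6088 and 5958. Its array of d1 was the lowest, at -0.25 on the log2 scale, d3 and d5 were near d0, at 0.0031 and 0.021, and d7, d10 and d14 formed the upper end. Uqcrc2 was likewise lowest at d1, at 7019, and highest at d10, at 9008.

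The small accessory subunits of complex III did not share 1 course. Uqcrq, which sits at the ubiquinone-binding side of the complex, had 2280.0, 2248, 2599, 2702, 2908, 2944 and 3095, and after d1 each array was above the one before it. Its slope was 0.126 (SE 0.0195, limma adjusted p 0.205), and 0.156 (SE 0.0197, adjusted p 0.0469) without d0. Uqcr10 ranged from 1277 at d0 to 1695 at d5, and Uqcrh, the hinge protein between the cytochrome c partners, from 3986 at d1 to 5309 at d10. Uqcrb, a subunit near the ubiquinone site, was above d0 at d5 (0.092) and d10 (0.055) and below it on the 4 other days.

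Uqcr11, the smallest subunit, took a different course. Its intensities were 2177, 1771, 1496, 1733, 1754, 1771 and 2159. The arrays of d0 and d14 were alike and the 5 between them lower, down to 0.687-fold d0 at d3 (log2 -0.54), the lowest ratio of any of the 41 genes on any day. A second row of Uqcr11 was also below d0 on those days, with log2 ratios from -0.48 at d1 to -0.26 at d10, and stood at 0.083 at d14. The slope of Uqcr11 was -0.0143 (SE 0.0516), the single negative slope among the 41.

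Cytochrome c itself, Cycs, the mobile carrier between complexes III and IV, had 7544, 7473, 8134, 9323, 7971, 8864 and 8229.6. It was highest at d5 and d10 and close to d0 at d1, with d7 below both of its neighbours. That dip at d7 between d5 and d10 was seen in 14 of the 41 genes (34.1%), near the 30.4% of all genes. A further row of Cycs at low intensity (102.4 to 124.4) was lower at d10 than at d0, by a log2 ratio of -0.27, so the 3 rows of this gene, which has many processed copies in the genome, did not move alike.

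In complex IV the widest change of all 41 genes was that of Cox4i1, the common form of subunit IV, which binds ATP and lowers the enzyme's activity when ATP is plentiful. The Cox4i1 intensities were 2383, 2484, 2776, 3208, 3376, 3627 and 3615. They were lowest at d0 and higher on each array up to d10, with d10 and d14 alike, at 1.52-fold and 1.52-fold d0 (log2 0.61 and 0.60). Cox4i1 was the only one of the 41 genes past 1.5-fold on any day. Its limma slope was 0.177 (SE 0.0207), with an adjusted p of 0.147 over 7 arrays and of 0.0469 without d0.

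Cox5a and Cox5b encode subunits that bind the matrix side of the core. The Cox5b intensities were 7008, 5773, 6611, 7607, 7618, 7742 and 7729. Its d1 array was 0.824-fold d0, the third lowest ratio of that day, and d5 to d14 lay within 7607 to 7742. Cox5a followed with 3093 at d0, 2772 at d1 and 3686 at d7, its highest array. Both genes kept all 4 arrays from d5 on above the first 3, and their slopes were 0.0928 (SE 0.0265) and 0.0782 (SE 0.0324).

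In 4 further subunits of complex IV, d1 was the lowest array. Cox6b1, which faces the intermembrane space and holds the dimer together, ranged from 4699.9 at d1 to 5638 at d14, Cox6c from 12690.0 at d1 to 14696 at d14, and Cox7b from 8779 at d1 to 10635 at d10. Cox7a2l, a relative of Cox7a, ranged from 409 at d1 to 466 at d10.

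The isoform pairs of complex IV were compared by how their log2 difference moved over the days, since 2 rows of an array cannot be compared by level. For subunit VIa, the muscle form Cox6a2 had 11408, 10229.9, 11268, 11268, 11115, 11429.7 and 11852, and the common form Cox6a1 had 366, 458, 450.5, 509.6, 356, 456 and 433. Cox6a2 was lowest at d1 and otherwise within 11115 to 11852, while Cox6a1 was higher than d0 on 5 of the 6 later arrays and lowest at d7. The difference Cox6a2 minus Cox6a1 thus changed from d0 by -0.48 at d1, -0.32 at d3 and -0.50 at d5 on the log2 scale, by 0.0032 at d7, and by -0.31 and -0.19 on the last arrays. Its correlation with log2(day + 1) over the 7 arrays was small (Pearson's r = -0.0731, exact permutation p = 0.87; Spearman's rho = 0.179, p = 0.713; two-sided).

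For subunit VIIa both forms were higher late, but the common form was higher first. Cox7a2, the common form, had 1858, 2168, 2439, 2723, 2506, 2569.5 and 2433. It was above d0 on each later array and highest at d5, at 1.47-fold. Cox7a1, the muscle form, had 6744, 6544, 7048, 7692, 7852, 9433 and 8881. It was near d0 at d1 and d3 and highest at d10 and d14, at 1.4-fold and 1.32-fold. The difference Cox7a1 minus Cox7a2 differed from that of d0 by -0.27 at d1, -0.33 at d3, -0.36 at d5 and -0.21 at d7, and was back at the d0 value on the arrays of d10 (0.016) and d14 (0.0079). A straight trend did not describe this course (r = 0.144, exact permutation p = 0.736; rho = 0.464, p = 0.302), and without d0 and d1, the arrays farthest from the median on the log2(day + 1) scale, r was 0.906 over 5 arrays.

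In the pair of subunit VIII the common form was also higher first. Cox8a, the common form, had 1343, 1404, 1551, 1632, 1503, 1456 and 1456, highest at d5. Cox8b, the muscle form, had 10169.8, 10035, 10745, 10653, 11335, 11468 and 11649.7, highest at d14. Their difference, Cox8b minus Cox8a, changed from d0 by -0.083 at d1, -0.13 at d3 and -0.21 at d5, was back near the d0 value at d7 (-0.0059), and lay above it by 0.057 and 0.080 on the last arrays (r = 0.307, exact permutation p = 0.498; rho = 0.5, p = 0.267; r without d0 and d1 0.841). In all 3 muscle and common pairs, therefore, the difference was below d0 at d1, d3 and d5. All of these values share the d0 array, against which the median of all genes was 0.10, 0.066 and 0.048 on those days. The muscle forms also have the brighter rows, and brighter rows spanned a narrower range, as described below. The part of either in these differences was not tested.

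The pair of subunit IV has no muscle form. Cox4i2, known from lung and from the response to low oxygen, had 293, 321, 348, 312, 356, 305 and 323, with no order by day. Cox4i1 minus Cox4i2 changed from d0 by -0.072 at d1 and -0.027 at d3, and then by 0.34, 0.22, 0.55 and 0.46 from d5 to d14. This was the strongest trend of the 4 pairs (r = 0.847, exact permutation p = 0.0171; rho = 0.821, p = 0.0341), and it did not pass adjustment over the 8 tests (adjusted p = 0.137 for both). The other 6 adjusted p-values of these permutation tests lay between 0.605 and 0.87. Without d0 and d1, r was 0.859.

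**Figure D3:**
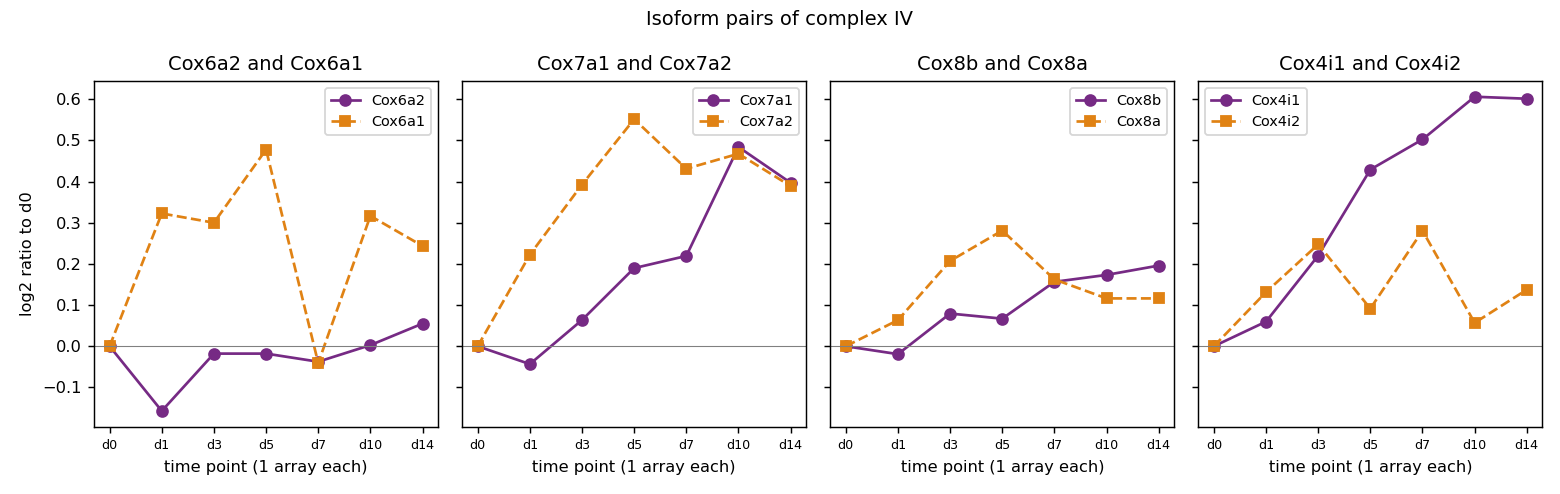
Log2 ratio to d0 (y axis) at each time point (x axis, 1 array each) for the 4 isoform pairs of complex IV; circles with a solid line are the muscle form (Cox6a2, Cox7a1, Cox8b) or Cox4i1, squares with a dashed line the common form or Cox4i2. In the first 3 panels the common form is the higher line at d1, d3 and d5, and Cox4i1 parts from Cox4i2 from d5 on.

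In complex V, the catalytic head changed little. Atp5a1 and Atp5b, the alpha and beta subunits that form the catalytic ring, ranged from 8193 (d1) to 9492 (d7) and from 14116 (d3) to 15456 (d14). Their largest distance from d0 was -0.12 for Atp5a1, at d1, and -0.086 for Atp5b, at d3. The delta subunit Atp5d of the central stalk was as flat, within 13263 and 15124, and the gamma subunit Atp5c1, the rotor shaft, went from 5808 at d1 to 7311 at d10.

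Atp5e, the epsilon subunit at the foot of the central stalk, had the largest slope of complex V, at 0.130 (SE 0.0194, limma adjusted p 0.205). Its intensities were 1375, 1391, 1579, 1694, 1692, 1864 and 1899.5. The arrays of d0 and d1 were alike, d5 and d7 were alike, and d10 and d14 were the highest, at 1.35-fold and 1.38-fold d0.

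Subunits of the membrane part were spread widely. Atp5mpl, a small proteolipid bound to the membrane domain, had 2317, 2178, 2338, 2848, 3013, 2733 and 2987, and Atp5j2, the f subunit next to the proton channel, had 4318, 4547, 5017, 5531, 5641, 5218 and 5543. In both, all arrays from d5 on were above the first 3, and d7 was the highest. The slopes were 0.117 (SE 0.0311, limma adjusted p 0.336) and 0.0986 (SE 0.0211, adjusted p 0.294). Atp5k, the e subunit, which helps ATP synthase form dimers, was 0.839-fold d0 at d1 and 1.14-fold at d14, and Atp5md, another subunit of the dimer interface, was above d0 at d5 (0.17) and d10 (0.14) and below it at d7 (-0.068).

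Atp5g1, Atp5g2 and Atp5g3 encode the same c subunit of the proton-driven rotor ring, and they differed in range. Atp5g3 had 5008, 4719, 5765, 5936, 6604, 5911 and 6089, with d1 the lowest and d7 the highest array, at 1.32-fold d0 (slope 0.100, SE 0.0278, limma adjusted p 0.341). Atp5g1 reached 1.13-fold at d7, also its highest array, and Atp5g2 1.06-fold at d14. Only the d1 array of each was more than 0.05 below d0 on the log2 scale.

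Of the peripheral stalk, which holds the head still, Atp5o changed most by the rows used here. This subunit (OSCP) joins the stalk to the head, and its intensities were 2797, 2331, 2660.0, 3232, 3338, 3226 and 3127. From d1 to d7 it went from the lowest array to the highest, 0.52 apart on the log2 scale, and all 4 arrays from d5 on were above d0. Atp5pb (b) and Atp5h (d) were highest at d5, at 1.17-fold and 1.16-fold d0, and Atp5j (coupling factor F6) at d10, at 1.15-fold. The sizes depended on the row. Other rows of Atp5h went from log2 ratios of -0.23 and -0.13 at d1 to 0.32 and 0.40 at d5, as wide as Atp5o. The second row of Atp5pb was highest at d7 (0.29).

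Atp5l, the g subunit of the dimer interface, took a course like that of Uqcr11. Its intensities were 2321, 1655, 1686, 1978, 1877, 2068 and 2340.0. The arrays of d0 and d14 were alike and the 5 between lower, with 0.713-fold d0 at d1 (log2 -0.49), the lowest ratio of that day. Atp5l has 6 rows on the array, and all of them were lower at d1, by log2 ratios of -0.35 to -0.53. They did not all follow this course later: 1 of the other rows was above d0 at d5 (0.053) and d10 (0.064), and another at d10 (0.026). Because of the high d0 value its slope was 0.0245 (SE 0.0534) over 7 arrays and 0.165 (SE 0.0334, limma adjusted p 0.113) without d0.

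**Figure D4:**
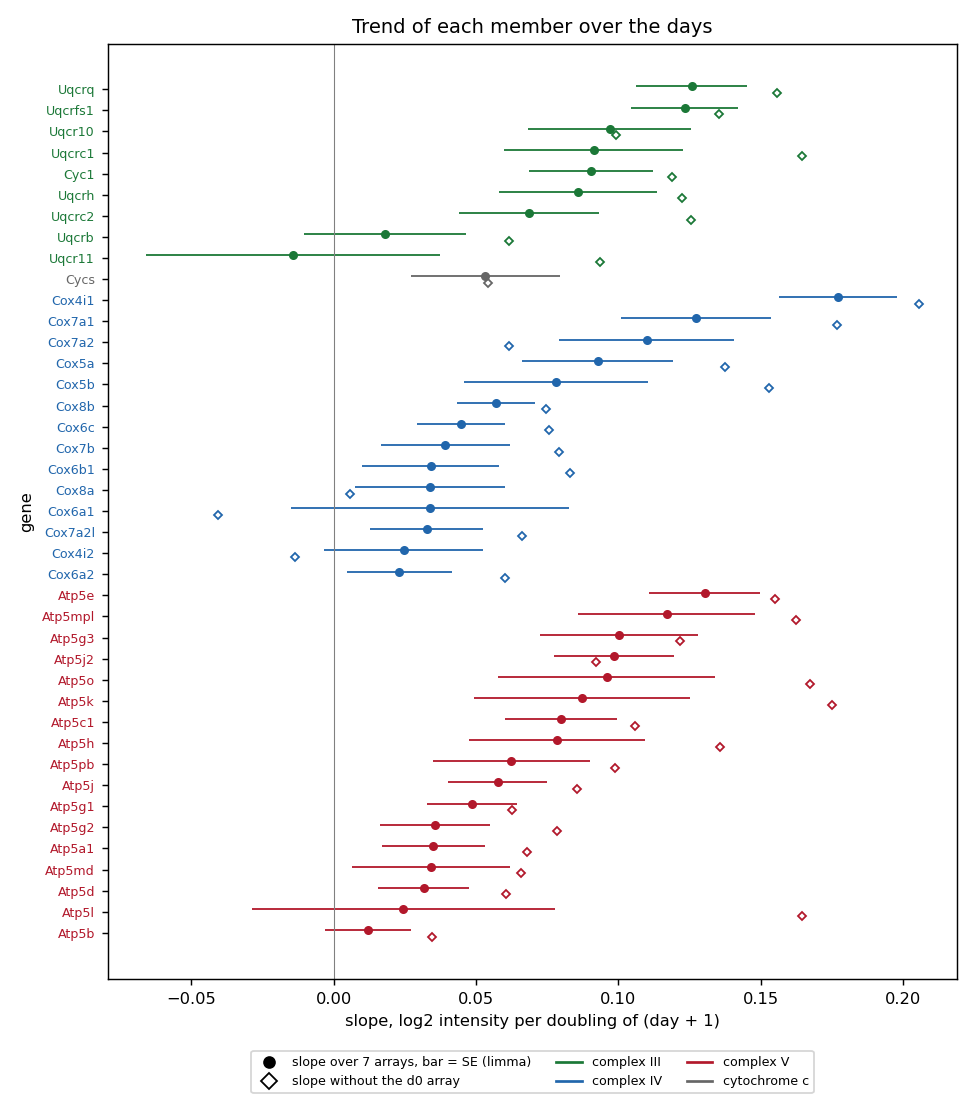
Limma slope of log2 intensity on log2(day + 1) (x axis, per doubling of day + 1) for each of the 41 genes (y axis, by complex). Filled points are slopes over 7 arrays with a bar of 1 SE on each side, and open diamonds slopes without the d0 array; over 7 arrays all but Uqcr11 lie above 0, and without d0 all but Cox6a1 and Cox4i2.

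The brighter rows of the array spanned a narrower range. The 13 genes of mean intensity 8000 or more had a median range over the 7 arrays of 0.23 on the log2 scale, and the other 28 one of 0.44. Over all genes the corresponding medians were 0.22 (98 genes) and 0.31. Across the 41 genes, mean level and range had a Spearman's rho of -0.583, as a description. The rows of these genes are among the brightest of the array, with a median at percentile 98.2 of the 12102 genes by mean intensity. The part that the upper end of the signal scale has in the narrow ranges of Cox6a2, Cox6c, Atp5b and Atp5d was not tested.

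The other complexes of the chain were also low at d1 and higher later. Of 35 genes listed under complex I, 27 were below d0 at d1 (25.0% of all genes) and 31 above it at d14 (71.3%), with medians of -0.080 and 0.18. The list holds Ndufa4 (-0.33 at d1 and 0.18 at d14), whose protein is now assigned to complex IV. Among them Ndufs6 (0.58) and Ndufa1 (0.46) were highest at d10 relative to d0, and Ndufs4 (-0.21) and Ndufb9 (-0.05) lowest. All 4 complex II genes were below d0 at d1 and above it at d14, and at d10 they ranged from 0.062 for Sdha and 0.15 for Sdhc to 0.23 for Sdhb and 0.41 for Sdhd. In the 7-array limma fit 17 of the 35 complex I genes and 3 of the 4 complex II genes had a positive slope at an unadjusted p under 0.05, as did 9.19% of all genes, and 0 passed adjustment. The only mitochondrially encoded gene with a named row was COX2, subunit II of complex IV, whose intensities were 14109, 12400.4, 12996, 14125, 12260.2, 14092 and 13907. It was below d0 at d1, d3 and d7 and level with it at d5, d10 and d14.

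The citric acid cycle, which feeds the chain, was still mostly below d0 at d3. Of its 13 genes, 10 were below d0 at d1 and 11 at d3 (medians -0.15 and -0.064), where 25.0% and 29.0% of all genes were, and 13 above it at d10 (median 0.16), as were 72.2% of all genes. Suclg2 (0.38) and Sucla2 (0.26), which encode succinyl-CoA ligase subunits, were highest at d10, and Idh3b (0.072) and Idh3g (0.045), which encode isocitrate dehydrogenase subunits, lowest.

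Genes that build the complexes were mostly above d0 at d1, as were 70.9% of all genes. The median of 20 complex IV assembly factors was 0.11 at d1, with 14 above d0, and 0.26 at d10, where Coa6 (0.56) and the translation activator Taco1 (0.51) were highest and the copper chaperone Cox17 (0.000) and the insertase Cox18 (-0.0035) lowest. Of 6 assembly factors of complex III, 5 were above d0 at d1, and the median of the 6 was 0.13. At d10 Bcs1l (0.30), which inserts the Rieske protein, and Uqcc1 (0.29) were highest, and Lyrm7 (0.041) and Uqcc2 (-0.18) lowest. For complex V, the assembly factors Atpaf1 (0.38), Atpaf2 (0.28) and Tmem70 (0.21) and the inhibitor Atpif1 (0.22) were all above d0 at d10, where 72.2% of all genes were. At d1, 3 of these 4 were above it. Of 10 genes of coenzyme Q synthesis, 6 were above d0 at d1 and 9 at d10 (70.9% and 72.2% of all genes). At d10, Coq6 (0.57) and Coq3 (0.56) were highest and Coq9 (-0.05) and Coq2 (0.075) lowest.

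All 16 regulators of mitochondrial genes were above d0 at d1, with a median of 0.25, against 70.9% of all genes with a median of 0.10. Ppargc1a, the coactivator of mitochondrial biogenesis, had 1585, 1877, 1720.5, 1622, 1768, 1738 and 1729, highest at d1, which was also the most common highest array over all genes (28.6%). At d10 the highest of the list were Ppara (0.55) and Ppargc1b (0.52) and the lowest Ppard (0.0068) and Gabpb1 (0.000). Of the 16, 5 had a positive slope at an unadjusted p under 0.05 in the 7-array limma fit (9.19% of all genes) and 0 passed adjustment. These slopes rested on d0: without that array the median slope turned from 0.0385 to -0.024, with 0 positive (6.88% of all genes) and 1 negative (6.39% of all genes) at an unadjusted p under 0.05.

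Among the myosin heavy chains, Myh2, that of oxidative fast fibres, had 5598, 8223, 11865, 10885, 11270.0, 11739 and 10896, and was higher than d0 from d1 on. Myh4, of the fastest fibres, stayed within 14087 to 15314. At d10 the log2 ratios were 1.07 for Myh2, 0.89 for the slow Myh7, 0.18 for Myh1 and -0.057 for Myh4. The part of fibre type in the values of the subunit genes was not tested.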

How the data were processed

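Each of the 7 arrays holds 1 pool of plantaris RNA from 6 mice, per the labels. The RNA input is given as 250 ng in the labelling protocol but as 100 ng in the design text, and which applies is unknown. The authors deposited linear intensities, 1 for each row on each array. The submitters' processing notes name Partek. How background was corrected, probes were summarized and arrays were normalized is not given in the sources used here, nor is the build. Detection above background and saturation could not be read from these values, and precision is limited by the small number of arrays.

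Of 35556 rows, 21789 carried a single symbol and were used, for 19938 genes. Their log2 was used, with nothing added (a pseudocount of 0). The filter kept genes no lower than an array's median over all rows on 1 or more of the 7 arrays. Ratios compare 1 array with 1 array, with no test, and log2 differences of 0.32 or more, a ratio of 5 to 4, were counted. Trends come from limma 3.58.1 under R 4.3.3 (lmFit, then eBayes with an intensity trend, two-sided, Benjamini-Hochberg at 0.05 over all 12102 genes). Its error holds the spread between pools and any departure from a straight line. Isoform differences were tested over all 5040 orders of the 7 arrays, for which the smallest two-sided p is 0.000397, with adjustment over 8 tests. Other steps ran in Python 3.11.15 with pandas 2.3.3, scipy 1.17.1, numpy 2.4.6 and, for plots, matplotlib 3.10.9. On simulated data with the 12102 genes, the limma trend called 4.0%, 38.0%, 76.0% and 96.0% of 50 genes each with a total log2 change of 0.25, 0.5, 1 and 2, and 0.0336% of 11902 unchanged genes. All 44 symbols matched RefSeq by Entrez ID, and promoter sequences are RefSeq's for GRCm38.p6.

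The members, gene lists, motifs and tests were chosen with earlier results of these data known. Named with values were the isoform pairs, the 4 largest slopes of each complex, the 3 highest and 3 lowest members of each day, members past 1.5-fold or an adjusted p of 0.05, and the 2 highest and 2 lowest genes of each related list at d10. Other members are named by role. The alternatives tried were other filters, quantile normalization, equal array medians, a pseudocount of 50, the mean of a gene's rows, 1.5-fold and 2-fold, other references, other scales of the day, no intensity trend, and each array left out. A run over members with 1 row was added after the data were seen.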

Additional observations from a re-analysis of the deposited data

How the results depend on the processing

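Values below are in the order of the report: the median log2 ratio of all 41 genes and of complexes III, IV and V, and counts of genes higher or lower by 0.32 or more on the log2 scale. Against d14 instead of d0, the medians were -0.29, -0.31, -0.21 and -0.29 at d1 (0 higher, 14 lower), -0.14, -0.19, -0.13 and -0.13 at d3 (0 higher, 6 lower), -0.038, -0.084, -0.057 and -0.037 at d5 (0 and 0), -0.040, -0.029, -0.082 and -0.0074 at d7 (0 higher) and 0.0048, 0.037, 0.0013 and 0.0020 at d10 (0 higher). Single genes that turned sign against d14 were Cox4i1 (-0.17 at d5, -0.099 at d7), Atp5j2 (-0.0030 at d5), Uqcrfs1 (-0.040 at d7), Uqcrq (-0.090 at d7, -0.072 at d10) and Atp5e (-0.028 at d10). Against d1, the median of all 41 was 0.12 at d3 and 0.29 at d14, that of complex III 0.31 at d14, and that of complex V 0.11 at d3, 0.28 at d5, 0.31 at d10 and 0.29 at d14, with 0, 11, 18 and 14 genes higher at d3, d5, d10 and d14, 0, 0 and 1 lower at d3, d5 and d7, and Atp5l at 0.027 at d3. Against the mean of the other arrays, d1 had -0.19 for all 41, -0.24 for complex III and -0.25 for complex V (0 higher, 5 lower), d3 had -0.062 for all 41, -0.067 for III and -0.051 for IV (0 higher, 1 lower), complex III had 0.029 at d5 and 0.12 at d7, and 0, 0, 1 and 0 genes were higher at d5, d7, d10 and d14, with 0 lower at d5. These follow from the reference, since d1 is low and d14 high for these genes.

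At 1.5-fold, 0, 0, 0, 0, 1 and 1 genes were higher from d1 to d14 and 0 lower at d1, d3 and d5, and at 2-fold 0 on any day either way. With only the members that have 1 row, the complex IV median at d1 was 0.020, 0 genes were lower at d1, d3 and d5, and 18 of 28 were lowest at d1. Equal array medians gave -0.0001 for all 41 at d3 and 2 lower at d7. Quantile normalization gave 0.016 for complex V at d3, 0 higher and 3 lower at d1, and 1 lower at d10. With the mean of a gene's rows 2, 0 and 1 genes were lower at d1, d5 and d7. Without a filter 2 genes were higher at d1 and 2 at d3. With a pseudocount of 50, 0 were higher at d1, 0 lower at d5, and Cox4i1 minus Cox4i2 had r = 0.870 (exact permutation, adjusted p = 0.0492). The cause of these shifts was not tested.

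Leaving out each array in turn gave 0 to 2 genes that rose and 0 that fell in the limma trend, and r of 0.80 to 0.90 for Cox4i1 minus Cox4i2, -0.34 to 0.57 for Cox6a2 minus Cox6a1, -0.12 to 0.73 for Cox7a1 minus Cox7a2 and 0.058 to 0.64 for Cox8b minus Cox8a. The number of genes with d5 to d14 all above the first 3 arrays was 24 to 28 of 41 under the scalings, filters, pseudocount and row means tried. No paired analysis was possible because each day has 1 array, so no 2 groups share 2 replicate numbers. Pools of 6 animals on single arrays leave differences of this size, mostly under 0.32 on the log2 scale, without a measure of error.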

Other observations

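Cox7c, a further subunit of complex IV, had no row of its own. The 3 rows that carry it together with Gm12338 had log2 ratios to d0 of -0.081 to -0.14 at d1 and 0.12 to 0.19 at d10.

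Of the 41 genes, 13 passed the filter with more than 1 row. Their rows differed by a median of 0.071 on the log2 scale at d1 and 0.067 at d10. The widest gap was 0.59, between the rows of Cycs at d10, and rows of opposite sign relative to d0 were found in 2 genes at d1 and in 2 at d10. For Atp5pb the second row lay above d0 at d1 (0.065) where the row used lay below it (-0.15). All rows of Atp5l were below d0 at d1 and d3.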
